A study of Mus musculus with 5 samples.

Results

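The keratins described here are the 9 genes that are read most often to tell luminal from basal mammary epithelium, and all 9 were found by symbol among the 24860 gene symbols of the files, which hold 55 keratin symbols. The luminal type members were Krt7, Krt8, Krt18 and Krt19, and the basal type members were Krt5, Krt6a, Krt14, Krt15 and Krt17. They were followed in single-cell RNA sequencing of tumours grown from SSM2, a mouse mammary tumour cell line that the series title places with hormone receptor-positive breast cancer. In mice of 10 to 12 weeks, 100000 SSM2 cells were put into the fourth mammary gland on the left side, and a pellet of progesterone (60 mg released over 60 days) or a placebo pellet was placed under the skin of the neck. Tumours were taken 28 to 62 days later, dissociated with enzymes and freed of red cells. The strain and sex of the mice are not given in the sources used here, and all tumours derive from 1 cell line. The sample titles sort the libraries into batch 1 (Placebo 1, Progesterone 1) and batch 2 (Placebo 2 and a pair of progesterone libraries, Progesterone 2 and 3). Whether every library had its own animal is not stated, and the names of Progesterone 2 and 3 have one identifier in common, followed by L in one and R in the other. A p-value here therefore measures the spread between libraries, which may be technical.

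Keratins form the intermediate filaments of epithelial cells as pairs of a type I and a type II protein. Krt8 (type II) with Krt18 (type I) is the pair of simple epithelium, and in the mammary gland Krt8, Krt18, Krt19 and Krt7 mark the luminal layer that lines the ducts. Krt5 (type II) with Krt14 (type I) is the pair of the basal, myoepithelial layer. Krt17 and Krt6a are keratins of hair follicles and of wounded or stressed epithelium, and Krt15 is a type I keratin of basal keratinocytes and follicle stem cells.

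In the GRCm38 annotation (GENCODE M21) the genes lie in both keratin clusters of the mouse. Krt15 (chromosome 11, 100131758 to 100135928), Krt19 (100140810 to 100148665), Krt14 (100203162 to 100207548) and Krt17 (100256217 to 100261029) lie on the minus strand of chromosome 11, and Krt15 and Krt19 are separated by 4881 bases. The other cluster, on chromosome 15, holds Krt7 (101411043 to 101430313, plus strand), Krt6a (101689910 to 101694307, minus), Krt5 (101707070 to 101712898, minus) and Krt8 (101996698 to 102004482, minus). Krt18 (102028180 to 102032027, plus strand) is a type I gene outside the type I cluster, 23697 bases from Krt8 and pointing away from it. Reads of a 3' method come from the end of a transcript, and of the 411 words of 90 bases in the last 500 bases of each member, 0 occurred in a transcript of another gene, for all 9 members.

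Promoter sequence was at hand for 5 of the 9 members (RefSeq, GRCm38.p6: Krt5, Krt7, Krt8, Krt14 and Krt18). The 250 bases before the RefSeq start are shown for Krt8 and Krt18, the pair whose levels moved together below, and for Krt7, the luminal member whose level did not pass the test. Capitals mark matches on either strand to GGGCGG, known as the GC box, and to CAGGTG, an E-box that Snail and Zeb repressors can bind. The search also covered TATAAA, the core of the TATA box, the letters TGANTCA of the AP-1 site, and AGAACA, a short element read by steroid receptors. No 2 matches overlap. The RefSeq start of Krt7 lies 1360 bases inside the GENCODE gene given above, that of Krt8 140 bases and that of Krt18 36 bases, so these windows overlap the longest gene models.

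Krt8, chr15:102004343-102004592, minus strand: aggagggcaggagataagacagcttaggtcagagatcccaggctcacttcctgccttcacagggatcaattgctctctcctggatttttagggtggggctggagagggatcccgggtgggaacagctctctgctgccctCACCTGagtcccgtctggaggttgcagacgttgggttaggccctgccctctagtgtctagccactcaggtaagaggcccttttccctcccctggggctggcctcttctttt

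Krt18, chr15:102027966-102028215, plus strand: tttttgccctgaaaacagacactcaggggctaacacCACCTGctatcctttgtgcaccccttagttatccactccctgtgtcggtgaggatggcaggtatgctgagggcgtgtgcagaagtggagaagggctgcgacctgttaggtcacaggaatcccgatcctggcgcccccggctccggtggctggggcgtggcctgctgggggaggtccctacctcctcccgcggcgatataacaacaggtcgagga

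Krt7, chr15:101412153-101412402, plus strand: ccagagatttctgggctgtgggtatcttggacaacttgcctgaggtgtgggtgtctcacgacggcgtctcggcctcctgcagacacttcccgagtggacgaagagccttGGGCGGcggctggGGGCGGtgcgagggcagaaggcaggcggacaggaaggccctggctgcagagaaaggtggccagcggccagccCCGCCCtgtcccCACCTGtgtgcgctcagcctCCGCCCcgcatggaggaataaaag

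CAGGTG was found once before the starts of Krt8 (111 to 106 bases before it), Krt18 (214 to 209), Krt7 (44 to 39) and Krt5 (128 to 123), and it occurs in 17.2% of the 32851 promoters of that length. GGGCGG was found 4 times before Krt7 and not in the other 4 windows, against 32.7% of all promoters. TATAAA, present in 12.4% of all promoters, was in none of the 5 windows. The same held for the AP-1 site (6.75% of all promoters) and for the steroid receptor element (16.1%). These matches describe letters and not binding sites.

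The libraries held 43194597 (Placebo 1), 23409215 (Progesterone 1), 197264441 (Placebo 2), 204786073 (Progesterone 2) and 182845008 (Progesterone 3) UMIs, the unique molecular identifiers that count transcript molecules, and pairs of libraries shared 2 to 12 cell barcodes. Tumour epithelial cells were taken from clusters made without any keratin gene and named from 11 markers such as Epcam and Cldn4, none of them a keratin, so that keratin values did not choose the cells. Placebo 1 had 2 such cells and Progesterone 1 had 49, against 2818 for Placebo 2, 3092 for Progesterone 2 and 3282 for Progesterone 3. All 11 epithelial markers were detected in each of the 4 libraries with at least 10 such cells. Summed markers of myoepithelial cells stood at 3.75 to 5.50 CPM (counts-per-million, a gene's UMIs scaled to all UMIs of the class in that library). Placebo 1 stands apart: with 2 tumour cells of full depth it could not enter the comparison of the class, so Placebo 2 is the only placebo library there. Values of Placebo 1 are given from its low-depth clusters and from all its barcodes.

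In tumour epithelial cells, the luminal pair Krt8 and Krt18 stood lower and Krt15 higher under progesterone, and Krt17 was nearly confined to the placebo tumour of batch 2. The 9 keratins together made up 2.48% of all UMIs in Placebo 2 and 1.51%, 1.61% and 1.65% in Progesterone 2, Progesterone 3 and Progesterone 1. In a fit over all genes (edgeR's quasi-likelihood test on summed counts with batch as a term and Benjamini-Hochberg adjustment), all 9 members passed the filter on low counts and 6 passed the adjusted threshold of 0.05, against 51.9% of the 16283 genes tested. Krt6a and Krt15 were called higher (25.6% of all genes were), and Krt8, Krt17, Krt18 and Krt19 lower (26.3% were). With so many genes called, the count of 6 says little about the members, and their sizes are what is given here. With batch in the model, Progesterone 1 is alone in its batch and adds nothing to the treatment term. The fit then rests on Placebo 2 against Progesterone 2 and Progesterone 3 with 1 residual degree of freedom. Placebo 2, alone in its arm, is assumed to vary like the progesterone libraries. With treatment alone in the model (no replicate block), which uses Progesterone 1, 3 members passed against 12.3% of genes: Krt15 higher (5.65% of genes were called higher) and Krt17 and Krt18 lower (6.67% were called lower).

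**Figure D1:**
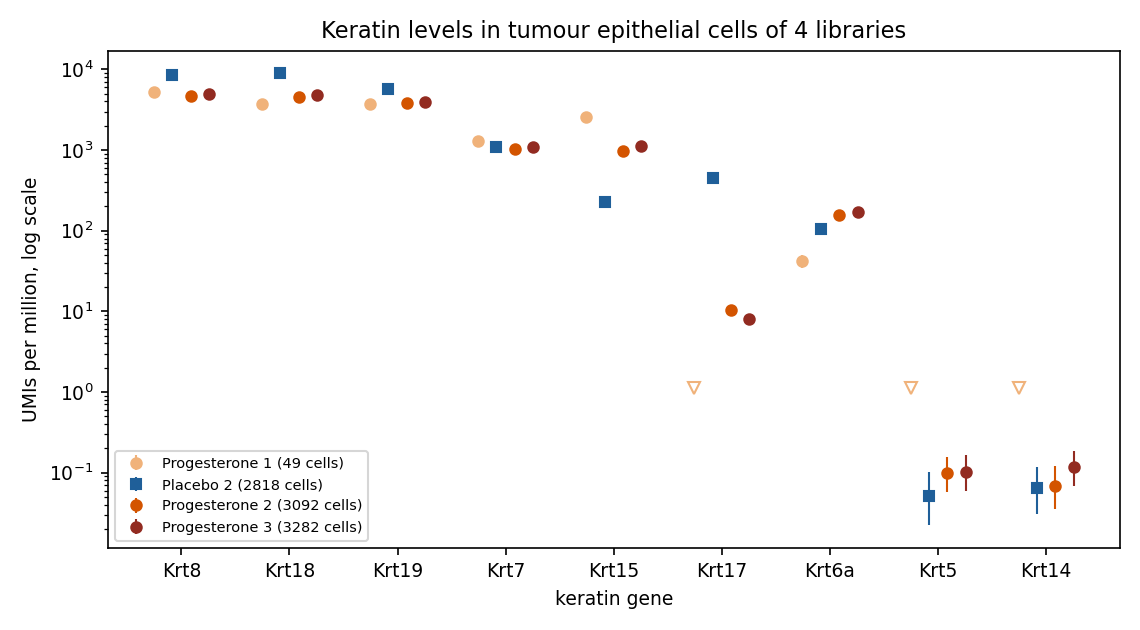
Levels (CPM) of the 9 keratins (log scale) in tumour epithelial cells of the 4 libraries with at least 10 such cells, with exact 95% Poisson intervals that cover counting error only. Open triangles mark a count of 0 and stand at 3 UMIs of the library's total; Krt17 stands at 448 in the placebo library and at 10.4 and 7.94 in the progesterone libraries of its batch.

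Krt8 stood at 8408 CPM in Placebo 2, against 4648 (Progesterone 2), 4898 (Progesterone 3) and 5216 (Progesterone 1). All 3 progesterone libraries lie below the placebo library. The fitted log2 ratio of progesterone to placebo was -0.97 ± 0.14 (SE; adjusted p = 1.03e-07, edgeR with batch), and adjusted p = 0.0513 with treatment alone. With tumour cells chosen by Epcam, or clusters at Leiden resolution 0.5, both of which bring in a few cells of Placebo 1, it was -0.52 (adjusted p = 0.0841) and -0.45 (0.217), and the call was lost. Krt18, its type I partner, stood at 8914 CPM in Placebo 2, 4482 in Progesterone 2, 4874 in Progesterone 3 and 3720 in Progesterone 1. Its log2 ratio was -1.09 ± 0.14 (adjusted p = 9.12e-09 with batch, 0.0449 with treatment alone), and -0.64 (adjusted p = 0.0517) at resolution 0.5. Krt19, the smallest type I keratin and a luminal marker, stood at 5649, 3815, 3924 and 3741 CPM in the same order of libraries. Its log2 ratio of -0.70 ± 0.13 passed with batch (adjusted p = 2.87e-05, edgeR) and missed the threshold with treatment alone (0.0957), with Epcam cells (-0.22, adjusted p = 0.494) and at resolution 0.5 (-0.26, adjusted p = 0.425).

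Krt7, a type II keratin of glandular ducts, was the luminal member that did not pass the test. Its levels were 1093 CPM in Placebo 2, 1039 in Progesterone 2, 1098 in Progesterone 3 and 1277 in Progesterone 1, so the placebo library lay within the range of the progesterone libraries. The fitted log2 ratio was -0.19 ± 0.12 (adjusted p = 0.199, edgeR with batch), and its sign turned with Epcam cells (0.26, adjusted p = 0.432).

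Of the basal members, Krt15 was higher in the tumour cells of every progesterone library than in those of Placebo 2. It stood at 228 CPM in Placebo 2, 974 in Progesterone 2, 1110 in Progesterone 3 and 2553 in Progesterone 1. Its fitted log2 ratio was 2.04 ± 0.14 (adjusted p = 7.2e-16, edgeR with batch) and 2.54 with treatment alone (adjusted p = 0.0498). In Progesterone 1 a single cell of 241622 UMIs held 23.6% of the Krt15 UMIs of the class, and without it the level there was 2144 CPM. With treatment alone and Progesterone 2 or Progesterone 3 left out, Krt15 was the 1 member that still passed.

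Krt17 showed the largest difference of the 9 in the fit. It stood at 448 CPM in Placebo 2 (69488 UMIs), 10.4 in Progesterone 2 (1799 UMIs), 7.94 in Progesterone 3 (1232 UMIs) and 0 in Progesterone 1, where a count of 0 in 2667757 UMIs allows up to 1.12 CPM. The log2 ratio was -5.76 ± 0.17 (adjusted p = 4.86e-08, edgeR with batch). The spread over cells also differed in form: the top 1% of cells held 12.2% of the Krt17 UMIs of Placebo 2, but 76.0% of those of Progesterone 2 and 64.5% of those of Progesterone 3. Summed markers of fibroblasts stood at 29.0 CPM in the epithelial class of Placebo 2 and 7.50 to 13.9 in the progesterone libraries, and those of endothelial cells at 63.2 against 14.4 to 15.5 CPM, and their part in the Krt17 difference was not tested. Krt17 in the fibroblasts of Placebo 2 was at 6.83% of its epithelial level there, or 14.6% with doublets kept and 2.26% in fibroblasts with no Epcam UMI. Placebo 1, the other placebo library, did not share the high Krt17 level of Placebo 2, as its values below show. With treatment alone, leaving out Progesterone 2 or Progesterone 3 ended the Krt17 call (adjusted p = 0.482 and 0.639).

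Krt6a, a type II keratin induced in wounded epidermis, stood at 105 CPM in Placebo 2, 159 in Progesterone 2, 168 in Progesterone 3 and 41.6 in Progesterone 1. A single cell held 36.0% of the Krt6a UMIs of Progesterone 1, and without it the level there was 29.3 CPM. Libraries of batch 2 differed by 0.48 ± 0.10 on the log2 scale (adjusted p = 7.85e-05, edgeR with batch), but Progesterone 1 lies below the placebo library. With treatment alone the ratio was 0.09 (adjusted p = 0.946), with Epcam cells 0.31 (0.425) and at resolution 0.5 0.40 (0.130), so the call was lost in each.

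The classical basal pair was all but unread in the tumour cells. Krt5 gave 8 UMIs in Placebo 2, 17 in Progesterone 2, 16 in Progesterone 3 and 0 in Progesterone 1, which is 0.0516, 0.0981 and 0.103 CPM in batch 2. Krt14 gave 10, 12, 18 and 0 UMIs in the same order, or 0.0645, 0.0693 and 0.116 CPM. The log2 ratios were 0.66 ± 0.56 for Krt5 (adjusted p = 0.337, edgeR) and 0.29 ± 0.56 for Krt14 (adjusted p = 0.688). With Epcam cells both turned and passed (edgeR, Krt5 -1.23, adjusted p = 0.0232, and Krt14 -2.52, adjusted p = 0.000386), and so did Krt14 at resolution 0.5 (-1.88, adjusted p = 0.000424), so no direction is read for either gene. Both genes were seen elsewhere in the same libraries. The kept cells of Placebo 2, with doublets removed, held 161 Krt14 and 39 Krt5 UMIs. A single cell of an unnamed cluster, whose leading genes include the milk genes Wfdc18 and Csn3, held 83 of these Krt14 UMIs. In the fibroblast class 1 cell held 59 Krt14 UMIs together with 26 of the 39 Krt5 UMIs. In Progesterone 1, 2 cells of the fibroblast class held 11 and 10 of 28 Krt14 UMIs.

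In the named tumour cells, the balance of the filament types moved less than the single genes. The ratio of type II to type I UMIs in tumour epithelial cells was 0.630 in Placebo 2, 0.630 in Progesterone 2, 0.622 in Progesterone 3 and 0.653 in Progesterone 1. For Krt8 over Krt18 the ratio was 0.943, 1.04, 1.00 and 1.40 in that order. In Progesterone 1 a single cell held 25.8% of the Krt8 and 18.1% of the Krt18 UMIs of the class. Without that cell Krt8 stood at 4258 and Krt18 at 3351 CPM there. Over all barcodes the ratio of Krt8 to Krt18 was 1.25 in Placebo 1 and 1.30 in Progesterone 1, against 0.939 to 1.04 in batch 2. In this ratio the libraries of a batch were closer to each other than those of a treatment. The ratio of type II to type I over all barcodes was 0.781 in Placebo 1, against 0.621 to 0.630 in the other libraries. These ratios carry no length term and are read between libraries only.

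Tumour RNA of low depth was read in 3 clusters that scored highest for epithelial markers but had too few UMIs per cell to be named. They held 169 cells and 425405 UMIs in Placebo 1 and 257 cells and 1245120 UMIs in Progesterone 1. Placebo 1 had 152, 17 and 0 cells in these clusters, and the last of them held 946 of the 1205 such cells of Placebo 2. The low-depth cells of Placebo 1 and Placebo 2 are therefore mostly of different clusters. In the low-depth clusters Krt15 stood at 745 CPM in Placebo 1 and 1304 in Progesterone 1. All basal members together stood at 614 CPM in the low-depth clusters of Progesterone 2, 644 in Progesterone 3 and 422 in Placebo 2. Krt15 in Progesterone 2 and Progesterone 3 was therefore below its level in Placebo 1, a library of the other batch. Krt17 had 0 UMIs in Placebo 1, which allows up to 7.05 CPM, and 22 UMIs or 17.7 CPM in Progesterone 1. In the low-depth clusters of Placebo 2 Krt17 stood at 245 CPM, and in those of Progesterone 2 and Progesterone 3 at 4.77 and 5.86. The placebo libraries thus differed from each other in Krt17 more than Placebo 1 did from the progesterone libraries. Krt6a stood at 242 CPM in Placebo 1 and 54.6 in Progesterone 1, the opposite order to batch 2. Krt8 (4861 against 4322 CPM) and Krt18 (3987 against 3672) were higher in Placebo 1 by less than the gap seen in batch 2, and Krt19 was lower (2633 against 4066 CPM). Krt7 stood at 651 CPM in Placebo 1 and 861 in Progesterone 1.

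With these clusters added to the class, all 5 libraries entered the fit (171 cells of Placebo 1, 306 of Progesterone 1), and 2 members passed against 18.5% of genes (edgeR with batch). Krt15 was higher (log2 ratio 1.79, adjusted p = 0.00566; 9.68% of genes were called higher) and Krt17 lower (-4.75, adjusted p = 0.0293; 8.79% were called lower). Krt8 (-0.62, adjusted p = 0.114), Krt18 (-0.74, adjusted p = 0.0716) and Krt19 (-0.27, adjusted p = 0.497) did not pass. With treatment alone over these 5 libraries 0 members passed, against 0.652% of genes (103 genes at the adjusted threshold, 2471 at an unadjusted p under 0.05). Without Placebo 2, Placebo 1 was the placebo library, and with batch in the model the treatment term compared it with Progesterone 1 alone. The spread came from Progesterone 2 against Progesterone 3, so only sizes are given. The median log2 ratio over all genes of that fit was 0.41. Krt15 stayed higher (1.44), Krt6a was lower (-2.54), Krt7 higher (0.63) and the fitted Krt17 ratio was of the other direction (7.94). Krt17 has 0 UMIs in Placebo 1, so that last ratio depends on the prior count and is no bound.

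All 5 libraries can also be compared by the makeup of their keratin UMIs, which asks what share each member takes of the 9 over all barcodes and does not depend on naming cells. Krt15 took 5.17% of the keratin UMIs in Placebo 1 and 0.919% in Placebo 2, against 13.3%, 6.40% and 6.93% in Progesterone 1, 2 and 3. Krt7 took 4.93% and 4.40% under placebo and 7.24%, 6.88% and 6.82% under progesterone. Krt19 took 21.3% and 22.6% under placebo and 24.2%, 25.2% and 24.4% under progesterone. The groups of these 3 members do not overlap and progesterone is higher, which was so for 21.1% of 218 genes enriched in the epithelial class and scaled in the same way. Krt8 took 37.2% and 33.8% under placebo and 31.1%, 30.7% and 30.5% under progesterone, without overlap and lower (6.42% of the 218 genes). An exact two-sided permutation test over the libraries has 10 arrangements and gave p = 0.2 for each of these 4 members, the smallest it can give with 2 against 3 libraries (0.45 after Benjamini-Hochberg adjustment over the 9). The shares sum to the whole, so a rise of one lowers the others.

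For the other members the groups overlap. Krt18 took 29.7% in Placebo 1, 36.0% in Placebo 2 and 23.8%, 29.7% and 30.3% in Progesterone 1, 2 and 3. Krt6a took 1.73% and 0.417% under placebo and 0.282%, 1.04% and 1.03% under progesterone. Krt17 took 0% in Placebo 1 and 1.80% in Placebo 2, against 0.0337%, 0.0675% and 0.0482% under progesterone.

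**Figure D2:**
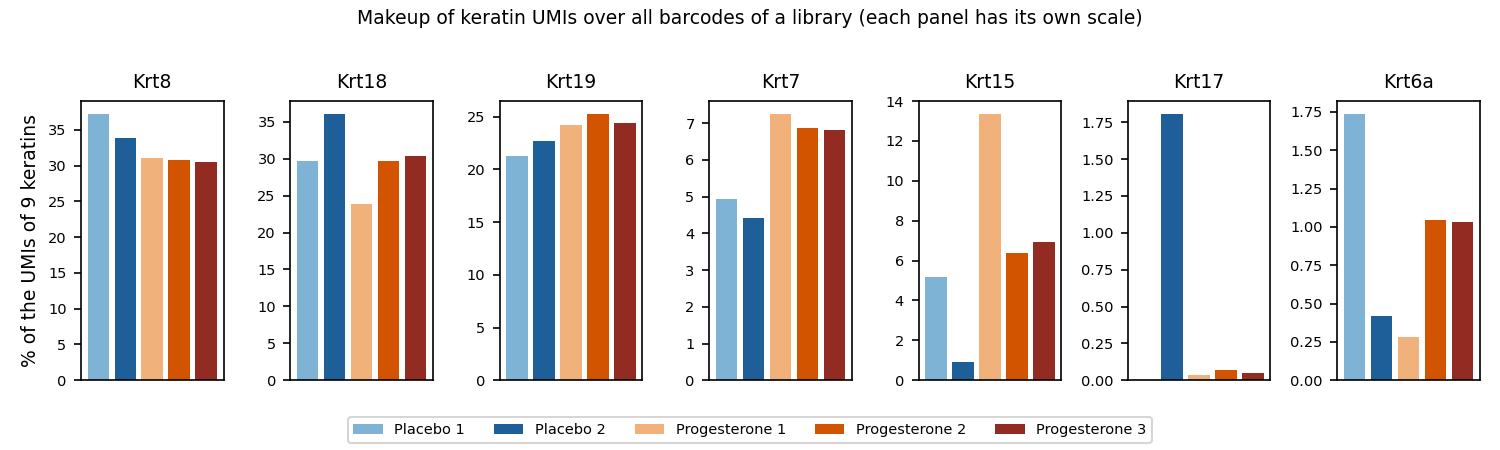
Share of each of 7 keratins (each panel with its own scale from 0) among the UMIs of all 9, over every barcode of each of the 5 libraries. Krt15 and Krt7 stand higher in all 3 progesterone libraries (for Krt15 6.40% to 13.3% against 0.919% and 5.17%), and Krt17 stands out in Placebo 2 only (1.80%).

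Per cell, the luminal members were near universal and the basal ones were not. To compare cells at 1 depth, each was thinned to 3000 UMIs, which left out shallower cells and kept 45 (Progesterone 1), 2809 (Placebo 2), 3067 (Progesterone 2) and 3225 (Progesterone 3) tumour cells. Krt8, Krt18 and Krt19 then had a UMI in 98.6% to 99.9% of the tumour cells of batch 2, and Krt7 in 91.8%, 89.1% and 89.1% of those of Placebo 2, Progesterone 2 and Progesterone 3. Krt15 had a UMI in 22.5% of the cells of Placebo 2, 60.1% of Progesterone 2, 61.9% of Progesterone 3 and 64.4% of Progesterone 1 (exact binomial interval 48.8% to 78.1%). Unthinned, the Krt15 shares were 59.8%, 93.6%, 92.9% and 85.7%. Krt17 had a UMI in 40.8% of the cells of Placebo 2, 1.47% of Progesterone 2, 1.30% of Progesterone 3 and 0 of 45 in Progesterone 1, where the count of 0 limits cells with a UMI at this depth to 6.67% and sets no limit on cells that express the gene. Unthinned, the Krt17 shares were 78.2%, 6.44%, 6.67% and 0%. Krt6a had a UMI in 19.8%, 25.7%, 25.4% and 8.89% of cells in the same order, and Krt5 or Krt14 in at most 1 cell of a library. Intervals and limits of a 0 cover counting error only.

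Macrophages, which should not express keratins, gave the background of the same measure (median 14211, 14153 and 12963 UMIs per cell in Placebo 2, Progesterone 2 and Progesterone 3, and 44486, 50200 and 42130 for the tumour cells). Krt8 had a UMI in 57.8%, 46.0% and 38.3% of thinned macrophages of these libraries, and in 7.27% of those of Progesterone 1. Krt15 had one in 3.53%, 13.3% and 13.3%, and Krt17 in 6.71%, 0.325% and 0.173%. Each tumour share of Krt15, Krt17 and Krt6a in batch 2 was above the macrophage share of its library.

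**Figure D3:**
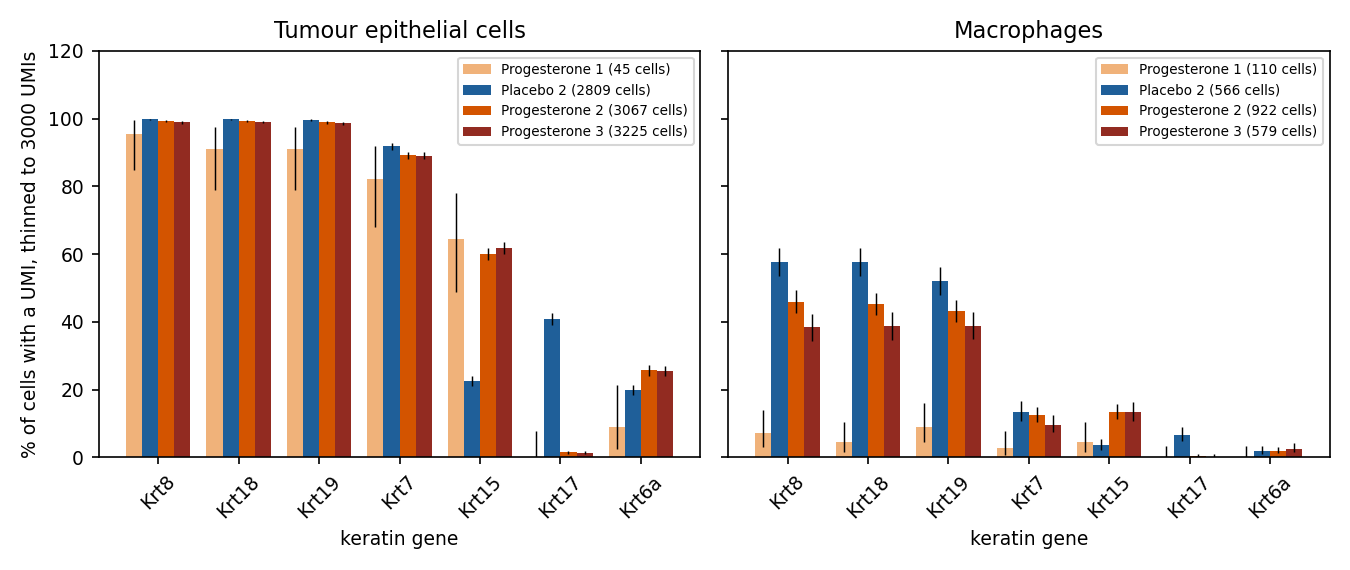
Percent of cells with at least 1 UMI of each keratin after thinning every cell to 3000 UMIs, in tumour epithelial cells (left) and macrophages (right) of 4 libraries, with exact 95% binomial intervals. Krt15 and Krt17 change places between placebo and progesterone in the tumour cells of batch 2 (22.5% and 40.8% against about 60.1% and 1.47%), and macrophages show the same order at lower shares.

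Luminal and basal keratins were read in the same cells. Krt8, Krt18 and Krt19 each had a UMI in 98.6% to 99.9% of the thinned tumour cells of batch 2. The share with both types was therefore nearly fixed there as the share with any basal UMI. A UMI of a luminal and of a basal member was found together in 63.8% of the thinned tumour cells of Placebo 2 (interval 62.0% to 65.5%), 69.5% of Progesterone 2 (67.9% to 71.2%), 70.9% of Progesterone 3 (69.3% to 72.5%) and 64.4% of Progesterone 1 (48.8% to 78.1%). Cells with a basal member alone numbered 0, 0, 1 and 0 in the same order. The basal member differed between Placebo 2 and Progesterone 2. In Placebo 2 the pair Krt17 and Krt19 was in 40.7% of cells and the pair Krt15 and Krt19 in 22.4%. In Progesterone 2 these pairs were in 1.47% and 59.9% of cells. With Krt19 in nearly every cell, these values all but repeat the single shares of Krt17 and Krt15. Placebo 1 did not share the order of Placebo 2. Of 17 of its cells chosen by Epcam, 0 had Krt17 with Krt19 and 5 had Krt15 with Krt19. Krt15 and Krt17 were both seen in 6.98% of the cells of Placebo 2, against 9.16% from the product of their shares. Krt15 and Krt6a were both seen in 16.5% and 16.7% of the cells of Progesterone 2 and Progesterone 3, against products of 15.4% and 15.7%. In macrophages a luminal and a basal member were together in 10.8%, 12.9% and 13.1% of cells of Placebo 2, Progesterone 2 and Progesterone 3, and in 0.909% in Progesterone 1. The share moved with the depth: at 10000 UMIs it was 85.7%, 88.6% and 90.7% in the tumour cells of batch 2, and with at least 3 UMIs of each type it was 26.3%, 32.4% and 36.2%. No test of treatment was made on these shares, since batch 2 has 1 placebo library.

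Within a library Krt8 and Krt18 varied together from cell to cell. At 10000 UMIs per cell, Spearman's rho between them was 0.84 over 2736 cells of Placebo 2, 0.78 over 2895 of Progesterone 2 and 0.81 over 3033 of Progesterone 3. Cells of a library share its depth and free RNA. The median cell at that depth held 75, 40 and 41 Krt8 UMIs and 78, 37 and 39 Krt18 UMIs in these libraries, so the shift was one of the typical cell. For Krt15 the median cell held 0, 3 and 4 UMIs, and the cell at the 95th percentile 11, 38 and 40. For Krt17 the median was 1, 0 and 0 UMIs and the 95th percentile 19, 0 and 0.

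Tumour epithelial cells fell into 12 sub-clusters, made without keratin genes, and nearly all of them were of 1 treatment. Numbers 8 to 11 held 2744 of the 2818 cells of Placebo 2, and numbers 0 to 7 held the rest. The 4 placebo sub-clusters had Krt17 at 154 to 767 CPM and Krt15 at 112 to 470 CPM. In the 16 combinations of a sub-cluster and a progesterone library of batch 2, Krt17 ranged from 0.377 to 16.5 CPM and Krt15 from 463 to 1474 CPM. Every placebo sub-cluster thus had more Krt17 than every progesterone one, while the ranges of Krt15 overlap slightly. A sub-cluster of 1 library may be that library and not a state of the cells.

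**Figure D4:**
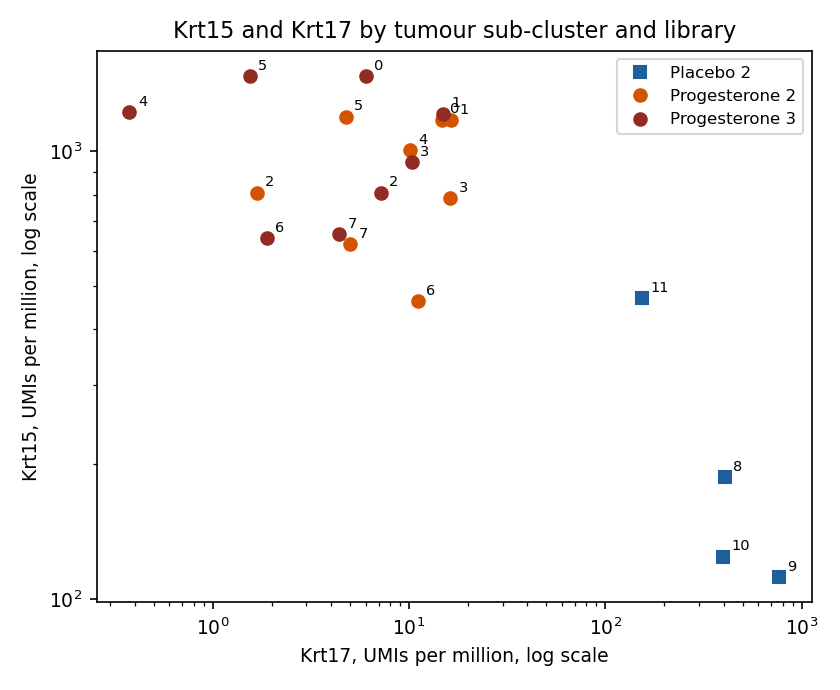
Krt15 against Krt17 (CPM, both axes log) in each tumour sub-cluster with at least 20 cells of a library in batch 2; numbers are the sub-clusters. The 4 placebo points lie at 154 to 767 for Krt17 and the 16 progesterone points at 0.377 to 16.5.

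Among the placebo sub-clusters, number 9, led by Gcg, the gene of glucagon, and by Krt17 itself, had the highest Krt17 (767 CPM) and the lowest Krt15 (112). Number 11, led by the cornified-envelope gene Sprr2a3 and the fibrinogen genes Fgg and Fgb, had the lowest Krt17 (154 CPM) and the highest Krt15 (470), Krt8 (9980), Krt18 (10226) and Krt19 (6784) of the 4. Among the progesterone sub-clusters, number 1, led by Cyr61, had the highest Krt6a (296 CPM in Progesterone 2 and 290 in Progesterone 3). Number 3, led by the hypoxia-response genes P4ha2, Ero1l and Bnip3, was the one with less Krt8 than Krt18 by a clear margin (ratios 0.848 and 0.789 in the same order). Elsewhere under progesterone the ratio ran from 0.983 to 1.29. The cycling sub-cluster 7, led by Ube2c and Top2a, had Krt15 at 621 and 654 CPM, against 1176 and 1472 in number 0, which is led by Defb1.

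Only 74 cells of Placebo 2 fell into sub-clusters 0 to 7. Their Krt17 was 10.8 CPM (39 UMIs), against 459 in the other cells of the same library, and their Krt8 and Krt18 were 5821 and 5826 CPM against 8469 and 8988. Their Krt15, however, was 112 CPM (230 in the other cells), not the 974 and 1110 of the progesterone libraries of batch 2. These cells were placed by their other genes, and keratins move with those, so this is a description and not a test.

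The genes whose levels were most like a member's were sought over 20 combinations of a sub-cluster and a library, by Pearson's r of log2(CPM + 1) among 11842 genes. Sub-clusters of a library share its depth and treatment, so r largely reads the order placebo against progesterone. Krt8 was nearest to Krt18 (0.975) and Krt19 (0.943), and Krt18 to Krt8 and to Mfge8 (0.942), the gene of a milk fat globule protein. Krt19 was nearest to Krt8 and Rnh1 (0.933), and Krt7 to Rnh1 (0.947) and Avpi1 (0.940). Krt15 was nearest to Mcur1 (0.944) and Abhd16a (0.936), and Krt17 to Lrg1 (0.941) and Nxf7 (0.938). Krt6a was nearest to Sfn (0.841), the 14-3-3 sigma of squamous epithelium, and Sgk1 (0.823), a kinase induced by steroids. Krt5 (41 UMIs over these libraries) and Krt14 (40) had too few UMIs to be matched.

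Other keratins of the tumour cells moved in both directions. Of 46 further keratin symbols 22 passed the filter on low counts, 8 were called higher and 3 lower (median log2 ratio 0.62, against 0.02 over all genes tested). With treatment alone the counts were 6 and 2. Over all genes tested, 25.6% were called higher and 26.3% lower with batch, and 5.65% and 6.67% with treatment alone, and these shares are the background for every list below. Krt85, a type II hair keratin, stood at 46.7 CPM in Placebo 2 and 10.5, 10.0 and 13.1 in Progesterone 2, Progesterone 3 and Progesterone 1 (log2 ratio -2.34 ± 0.09, adjusted p = 2.3e-23, edgeR with batch). Krt16, which pairs with Krt6 in wounded skin, stood at 14.1, 6.54, 7.31 and 0.375 CPM in the same order (-1.18 ± 0.12, adjusted p = 4.94e-11), and its adjusted p was 0.142 with treatment alone. Krt4, a type II keratin of oesophageal lining, rose from 0.748 CPM to 6.29, 8.35 and 2.62 (3.11 ± 0.20, adjusted p = 8.51e-13). Krt78 was at 2.08 CPM in Placebo 2 and 9.65, 10.4 and 17.6 under progesterone (2.10 ± 0.15, adjusted p = 2.19e-15), and the hair keratin Krt31 at 0.342 against 2.38, 2.76 and 3.37 (2.70 ± 0.26, adjusted p = 9.33e-12). Krt10 (24.7 CPM in Placebo 2, 25.1, 25.5 and 20.6 under progesterone), Krt80 (3.63 against 3.76, 5.37 and 4.50) and Krt79 (3.50 against 2.91, 3.47 and 3.37) did not pass the test. The largest changes were those of Krt33a (3.23) and Krt32 (3.22) upward and Krt87 (-3.58) downward, all under 3 CPM in every library.

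The partners of keratins at the cell surface were read from the same fit. Desmosome genes, which tie keratin filaments to the neighbouring cell, had 4 of 11 tested members higher and 4 lower with batch (median log2 ratio -0.016), and 1 higher and 1 lower with treatment alone. Perp, a desmosomal membrane protein, stood at 24.8 CPM in Placebo 2 and 54.9, 58.6 and 43.1 in Progesterone 2, Progesterone 3 and Progesterone 1 (log2 ratio 1.04), Dsg3 changed by 1.65, Dsc2 by -0.89 and Pkp1 by -0.82. Genes of the hemidesmosome and of its anchor in the basement membrane had 1 of 10 higher and 4 lower (median 0.002), and 0 and 1 with treatment alone. Itga6, the alpha subunit of the hemidesmosome integrin, stood at 235 CPM in Placebo 2 and 115, 103 and 87.0 under progesterone (-1.26), Cd151 changed by -0.72 and Lama3 by 0.91. Of 7 genes of other filaments and plakins 3 were lower and 0 higher (median -0.33), and every call was lost with treatment alone. The 3 include Nes, at 4.49 CPM in Placebo 2 and 1.32, 1.15 and 4.12 under progesterone, and Lmnb1 (-0.33).

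Genes of squamous differentiation had 5 of 8 tested members lower and 0 higher (median log2 ratio -1.10). Sprr1a, a cornified-envelope precursor, stood at 1040 CPM in Placebo 2, 306 in Progesterone 2, 313 in Progesterone 3 and 653 in Progesterone 1 (-1.90), and Sprr1b changed by -1.98. With treatment alone 3 of the 8 passed, all lower, and Sprr1a was not among them (adjusted p = 0.0625). Of 10 genes of basal epithelial transcription and surface 5 were higher and 2 lower (median 0.87), and 3 and 1 with treatment alone. Trp63, the transcription factor p63 of basal cells, stood at 0.0516 CPM in Placebo 2 and 2.12, 2.76 and 0.375 under progesterone (log2 ratio 5.04), and Ngfr at 0.148 against 2.83, 2.91 and 4.12 (3.99). Egfr (-1.86) and Jag2 (-0.93) were lower at under 1 CPM. Of 8 myoepithelial genes 1 was higher (Oxtr, 2.19) and 2 lower (Acta2, -1.98; Tagln, -0.76), all 3 under 1 CPM in every library. These are fewer than the share of all genes called, and with treatment alone 0 of the 8 passed. Of 12 genes of the luminal lineage 2 were higher and 5 lower (median -0.14), while with treatment alone 2 were higher and 1 lower and the median was 0.08. Esr1, the estrogen receptor gene, stood at 125 CPM in Placebo 2 and 249, 243 and 299 under progesterone (0.82), and Spdef at 2.34 against 9.60, 9.41 and 7.50 (1.86). Areg, the EGF-family ligand amphiregulin, stood at 5110 CPM in Placebo 2 and 2155, 1706 and 1901 under progesterone (-1.56), and Ly6d changed by -1.26.

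Keratin UMIs were also read in other classes of batch 2, and in macrophages at a near constant share of the tumour level. In macrophages the 9 keratins stood at 982 CPM in Placebo 2, 621 in Progesterone 2 and 569 in Progesterone 3, which is 3.95%, 4.11% and 3.54% of the level in the tumour cells of the same library. In Progesterone 1, where tumour cells were 2.24% of the cells against 50.5% to 62.8% in batch 2, macrophages held 59.8 CPM or 0.361% of the tumour level. The 11 epithelial markers, which were not keratins, stood in macrophages at 4.56%, 4.30%, 4.01% and 1.31% of their tumour level in the order Placebo 2, Progesterone 2, Progesterone 3 and Progesterone 1. The members kept nearly the same share of their tumour level. In the macrophages of Placebo 2 it was 3.42% for Krt8, 3.96% for Krt18, 4.71% for Krt19, 3.56% for Krt7, 4.05% for Krt15, 5.21% for Krt17 and 3.88% for Krt6a. Macrophages thus carried the keratin profile of their own tumour: Krt17 had 218 UMIs (23.4 CPM) in those of Placebo 2 against 10 (0.717 CPM) and 2 (0.248 CPM) in those of Progesterone 2 and Progesterone 3, while Krt15 had 9.22 CPM against 40.0 and 40.3.

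**Figure D5:**
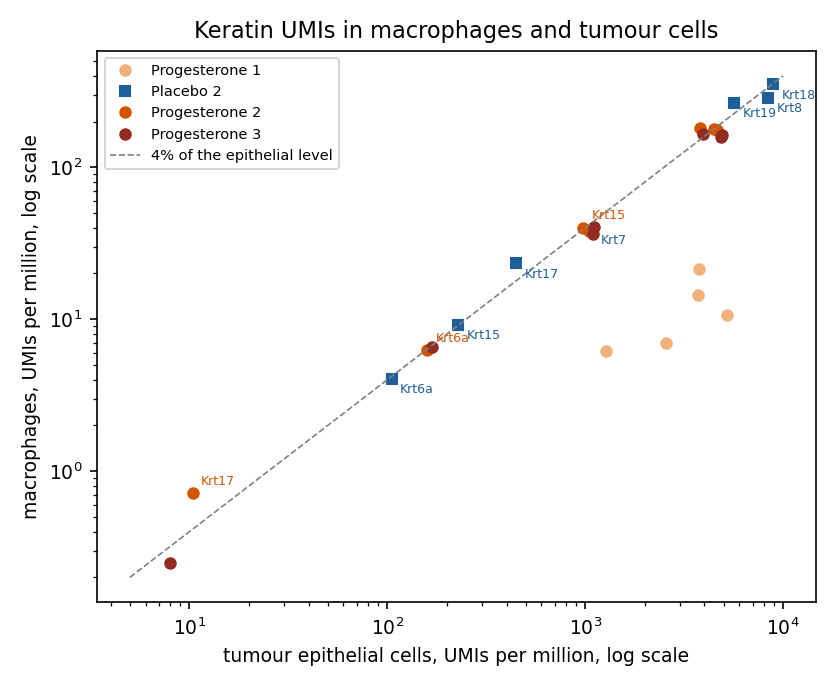
Each keratin's level (CPM) in macrophages against tumour epithelial cells of the same library (both axes log), with a dashed line at 4% of the tumour level. Points of batch 2 lie along the line from Krt17 under progesterone to Krt18 of the placebo tumour, and those of Progesterone 1 lie below it (0.361% for the 9 keratins together).

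Classes with fewer cells varied more. In fibroblasts the 9 keratins stood at 3.39%, 8.25% and 3.28% of the tumour level in Placebo 2, Progesterone 2 and Progesterone 3, in monocytes at 3.38%, 7.53% and 7.09%, and in T cells at 4.15%, 10.5% and 5.96%. With doublets kept the fibroblast shares were 14.3%, 8.48% and 6.38%, and in fibroblasts with no Epcam UMI 1.90%, 3.41% and 3.30%, so they depend on which cells are kept. In Progesterone 1 the shares were 0.480% in T cells, 0.505% in monocytes, 1.24% in neutrophils and 5.09% in fibroblasts. Of those 50 fibroblasts, 21 came from a cluster seen only in Progesterone 1, led by C3, Gpm6a and Slpi. With doublets kept, a cluster led in part by these genes stayed unnamed, and the share was 1.39% in 30 fibroblasts. Krt7 stood at 9.06% of its tumour level in the 50 fibroblasts and Krt15 at 0.358%. Krt14 had 27 UMIs there, against 0 in the tumour cells. Whether these cells express keratins themselves was not tested. Krt17 in the T cells of Progesterone 2 was at 270% of its low tumour level, from 6 UMIs in a class of 44 cells. After thinning, 0 of 31 T cells of that library had a Krt17 UMI. Over all 4096 T cells of Placebo 1, of which 4000 could be thinned to 3000 UMIs, 43 had a UMI of a luminal member only and 2 of a basal member only. In droplet data a keratin UMI in such a cell can be free RNA, and a detection share below these levels was not read as expression.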

How the data were processed

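Droplet 3' RNA sequencing gave 1 library per tumour sample. The authors deposited filtered matrices of raw UMI counts per gene and cell barcode, made with Cell Ranger 8.0.1 per the file headers. Version 7.0.0 of Cell Ranger, and the build mm10, stand in the submitters' processing notes, and the disagreement on the version could not be settled. No value was normalized, and mitochondrial genes number 0 in the files. Batch and treatment come from the sample titles, and 0 value columns were without a sample.

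Barcodes with at least 250 genes were kept, and doublets were scored per library with the Scrublet method in scanpy 1.11.5 and removed at 0.8% per 1000 barcodes. Cells were clustered on 2000 variable genes without any Krt gene (30 components, 20 neighbours, Leiden resolution 1) and named from marker lists without keratins; clusters of low depth stayed unnamed. Cell names are rebuilt here and may differ from the study's. UMI counts were summed per library over the cells of a class and tested with edgeR 4.0.16 (R 4.3.3; quasi-likelihood, robust, TMM, filterByExpr, prior count 2, batch as a term) with Benjamini-Hochberg adjustment over all genes tested. The model was also run on simulated counts with the same spread for all genes and no batch difference, and its outcome is not reported here. The standard error of a log2 ratio is its size divided by the square root of F. Libraries enter with at least 10 tumour epithelial cells, and sub-clusters with at least 20 cells of a library. Intervals are exact (Clopper-Pearson for shares, Poisson for counts) at 95%, and a count of 0 allows 3 counts; they cover counting error only.

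The pairing of libraries comes from the batch in the titles; batch 1 has 1 library in the fit, so no correlation of pairs could be computed. The members and gene lists were chosen with earlier results of these data known. All members are given; other keratins are named when they have at least 100 epithelial UMIs (at most 8), as are, from each list, up to 2 genes with the largest change in each direction past the threshold, and the 2 genes most like each member. Krt33a, Krt32 and Krt87 are named by the list rule.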

Additional observations from a re-analysis of the deposited data

Results flagged for a closer look

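For 3 members the batches moved in opposite directions in their share of keratin UMIs over all barcodes; the difference between batches was not tested. The Krt6a share differed by -1.452 percentage points (progesterone minus placebo) in batch 1 and was higher by 0.621 points in batch 2. The Krt17 share was higher by 0.03371 points in batch 1, where Progesterone 1 held 22 Krt17 UMIs and Placebo 1 none, and differed by -1.745 points in batch 2. The Krt14 share was higher by 0.0429 points in batch 1, all of it from 28 UMIs of Progesterone 1, and differed by -0.003053 points in batch 2. Placebo 1 held 6573 keratin UMIs in all and Progesterone 1 held 65265, and a count of 0 allows 3. The batch 1 direction of Krt17 and Krt14 is therefore not settled. In batch 1 the difference is Progesterone 1 minus Placebo 1, and in batch 2 it is the mean of Progesterone 2 and Progesterone 3 minus Placebo 2.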

How the results depend on the processing

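The 8455 genes called became 2006 without the replicate block, 4628 with DESeq2, 5589 with cells chosen by Epcam, 2917 with the low-depth clusters added, and, in alternatives chosen after seeing the data, 103 with those clusters and no replicate block and 247 with Epcam cells and no replicate block. Leaving out libraries gave 1062 to 8371 genes and 1 to 6 of the members (with no replicate block, 1222 genes without Progesterone 2 and 1062 without Progesterone 3). The 6 members called became 3 without the block, 2 with the low-depth clusters, 3 at Leiden resolution 0.5, and 0 with the low-depth clusters or Epcam cells and no block (edgeR; 103 and 247 genes called there). At resolution 0.5, 6389 of 15710 genes were called. Library totals in place of TMM moved the split of calls to 5740 higher and 3130 lower and the median of all genes from 0.02 to 0.17 (log2). With the low-depth clusters and without placebo replicate 2 there were 2402 genes and 3 members called.

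Ratios of members turned direction as follows. With Epcam cells these were Krt5 (-1.23) and Krt14 (-2.52), which passed the test there, and Krt7 (0.26), and with Epcam cells and no replicate block Krt5 (-1.25), Krt14 (-2.54) and Krt7 (0.28). At resolution 0.5 they were Krt14 (-1.88, which passed) and Krt7 (0.35), and at resolution 2 Krt14 (-0.061). With no replicate block Krt6a turned without Progesterone 2 (-0.15) or Progesterone 3 (-0.20), and Krt14 without Progesterone 3 (-0.15, and -0.03 with the block and no test). With the low-depth clusters they were Krt6a (-0.78) and Krt7 (0.16), and with these and no block Krt6a (-0.60) and Krt7 (0.17). With the low-depth clusters and without placebo replicate 2, Krt6a (-2.54), Krt7 (0.63), Krt17 (7.94) and Krt19 (0.32) turned. The cause was not tested.

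The share of cells with luminal and basal members moved with depth and minimum, in the order Progesterone 1, Placebo 2, Progesterone 2 and Progesterone 3: 89.2%, 85.7%, 88.6% and 90.7% at 10000 UMIs, 93.9%, 95.8%, 96.4% and 95.9% unthinned, and 35.6%, 26.3%, 32.4% and 36.2% with at least 3 UMIs. It was 60.2% in Placebo 2 with Epcam cells and 72.7% in Progesterone 3 with doublets kept. The macrophage level was 4.35% in Placebo 2 with doublets kept, and 3.27%, 3.91% and 3.16% in Placebo 2, Progesterone 2 and Progesterone 3 in cells with no Epcam UMI.

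Leaving out Placebo 2 with the block was not run, since no placebo library was left. Without Progesterone 2 or Progesterone 3 the block leaves values with no test (Krt17 -5.98 and -5.57). No sub-cluster was led by alveolar or myoepithelial markers, so none was left out. Depth limits Krt5 and Krt14 (under 20 UMIs in each library's tumour cells) and every value of Placebo 1.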
